A study of Mus musculus with 15 samples.

Results

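The 7 genes that encode microtubule-severing enzymes, taken by their symbols as *Fign*, *Fignl1*, *Fignl2*, *Spast*, *Katna1*, *Katnal1* and *Katnal2*, were examined in mouse embryonic cortical interneurons that derive from the medial ganglionic eminence (MGE). Of these 7 genes, 6 had a row in each of the tables used here, out of 26835 genes for *Lhx6* and 25714 for *Mtg8*, and the expression of *Fignl2* was not analysed here. The group was chosen by gene family around *Fign*, which was taken to have been selected on its normalized counts in *Lhx6* mutants and controls. The rule names both tables and does not say which contrast chose *Fign*, so it is not known whether the *Mtg8* comparison, which was tested, was also in view. Values of the 6 genes in the *Lhx6* comparison are therefore given as a description, with no p-value, and counts of calls there stand only beside the share of all genes called.

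RNA was sequenced from YFP-positive cells sorted from E14.5 cortex, with 1 embryo per library and 15 libraries in all, on a mixed C57BL6/CBA background. Every embryo carried the Nkx2-1-Cre transgene and the R26R-YFP fl/fl reporter, so YFP marked cells whose lineage had expressed Cre under *Nkx2-1* control. The groups were 4 *Lhx6* controls (Lhx6+/+), 5 *Lhx6* mutants (Lhx6-/-), 3 *Mtg8* controls (Mtg8+/+) and 3 *Mtg8* mutants (Mtg8-/-). Per the methods, mutants were littermates of controls, and the labels do not say which embryos shared a litter. The *Lhx6* allele was a null derived from a floxed line and the *Mtg8* allele a LacZ knock-in, and both were lost in the whole embryo rather than in the sorted cells alone.

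Microtubules are hollow polymers of tubulin, and severing enzymes are AAA ATPases that form rings and pull tubulin out of the lattice, which breaks the polymer along its length. Cutting can dismantle a microtubule, or can multiply the polymer mass when the new ends regrow. In neurons this activity is known to act in axon branching, dendrite growth and cell migration. The fidgetin family (*Fign*, *Fignl1*, *Fignl2*), spastin (*Spast*) and the catalytic katanin subunits (*Katna1*, *Katnal1*, *Katnal2*) belong to one branch of these ATPases.

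The libraries held between 12218422 and 22053032 reads. *Lhx6* was at 7247 ± 1093 normalized counts (reads divided by a library size factor; SD, n = 4) in *Lhx6* controls and at 331 ± 99.7 (n = 5) in the mutants, 4.57% of control. *Runx1t1*, the gene that encodes MTG8, was at 8891 ± 1219 (n = 3) in *Mtg8* controls and at 12845 ± 944 (n = 3) in the libraries labelled *Mtg8* mutant, higher in each of those 3. The gene-level value does not tell which exons the reads came from, and it does not check those labels. Of 17 MGE interneuron markers tested, 7 were lower in every labelled *Mtg8* mutant than in every control and 0 were higher, against 10.2% of all genes with groups that did not overlap. Of these markers limma called 0, against 0% of all genes, and DESeq2 called 2 lower, against 0.152% called in either direction. *Sst*, named here after its value was seen, differed by -1.34 (SE 0.19; limma adjusted p = 0.0713, DESeq2 adjusted p = 1.12e-05). It was the lowest of the 17 markers, whose log2 differences ran up to 0.99 with a median of -0.33. Summed markers of MGE interneurons ranged from 33635 to 91063 normalized counts per library. Those of the pyramidal lineage, which the sort should leave out, ranged from 12122 to 38606, and those of microglia, endothelium, mural cells and oligodendrocyte precursors from 5.87 to 879. Red blood cell genes summed to 5867 to 58166 in *Lhx6* controls and 1695 to 20186 in mutants. In bulk samples, fewer cells of a type and less RNA per cell cannot be told apart.

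*Fign* encodes fidgetin, the enzyme altered in the fidget mouse, and lies on chromosome 2 from 63971507 to 64098038 on the minus strand (GRCm38.p6; ENSMUSG00000075324.13). The 250 bases upstream of its annotated start, at chr2:64098039-64098288 and written in the direction of transcription, are shown because *Fign* was the member with the large difference. They come from RefSeq on GRCm38.p6, and capitals mark each CG dinucleotide.

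Fign promoter: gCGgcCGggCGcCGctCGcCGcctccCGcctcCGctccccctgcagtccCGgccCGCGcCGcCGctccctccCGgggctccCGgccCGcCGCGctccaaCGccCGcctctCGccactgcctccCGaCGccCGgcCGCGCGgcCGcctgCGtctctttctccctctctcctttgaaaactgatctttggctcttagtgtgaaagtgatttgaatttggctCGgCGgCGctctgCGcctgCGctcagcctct

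This window held 34 CG dinucleotides and 72.4% G or C, which placed it at percentile 97.0 and 94.0 of 32851 mouse promoters of the same length, whose medians were 6 CG and 52.4% G or C. TAATTA, a run of letters that many homeodomain proteins bind and that reads the same on both strands, was searched because LHX6 is a LIM homeodomain factor. It had 0 matches in the *Fign* window and 0 in the windows of *Fignl1*, *Fignl2*, *Spast* and *Katnal1*, whereas 4.84% of all promoters held it. The *Katnal1* window, chr5:148928598-148928897, lies inside the gene span of 148871584 to 148929320 on the minus strand, not upstream of it. The absence says only that these letters were not in these windows.

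*Fign* was low in *Lhx6* controls and higher in every *Lhx6* mutant. Controls 1 to 4 had 60.6, 41.7, 56.2 and 41.0 normalized counts of *Fign*, from 47 to 63 reads. Mutants 1, 2, 3, 5 and 6 had 535, 641, 700, 646 and 384, from 310 to 752 reads. The groups did not overlap, and the lowest mutant, mutant 6, was well above the highest control. Means were 49.9 ± 9.99 (SD, n = 4) in controls and 581 ± 126 (n = 5) in mutants, an 11.7-fold ratio. On the log2(normalized count + 1) scale, used for all log2 fold changes here, the difference was 3.51 with a standard error (SE) of 0.23. By size and direction it was number 14 from the top of 16727 genes tested. The control level of *Fign* stood at percentile 25.7 of those genes and the mutant level at percentile 69.3.

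The names of the libraries came in 2 styles, with and without a date, and the labels do not say what the styles stand for. All 4 *Lhx6* controls and mutant 6 had undated names, while mutants 1, 2, 3 and 5 had dated ones, so name style and genotype largely coincide in the *Lhx6* table. Mutant 6 against the 4 controls, within the undated names, gave a log2 difference of 2.94 for *Fign*. Without their last number, the names of mutant 6 and controls 1 and 2 are the same, and 1 of the 5 mutants shares such a stem with a control. Mutants 2 and 5 also share a stem with each other, so the 5 mutants have 4 stems. What a stem stands for is not given in the labels, and the SD and SE values treat the 5 mutants as separate. Against controls 1 and 2 alone, mutant 6 differed by 2.91 for *Fign*, 1.08 for *Fignl1*, 0.34 for *Spast*, -0.43 for *Katna1*, -0.27 for *Katnal1* and 0.78 for *Katnal2*. Mutant 6 also had the lowest summed MGE interneuron markers of the mutants, 33635 against 41417 to 56100 in the others, and controls had 54488 to 66725. That list holds *Sst* and *Lhx6*, so its sum includes the targeted gene itself. Of its 17 genes tested, limma called 2 higher and 5 lower, against 1.03% and 0.682% of all genes. DESeq2 called 2 higher and 6 lower, against 4.53%. Their log2 differences ran from -4.48 to 1.66, with a median of -0.28. Summed pyramidal lineage markers were 22318 to 28063 in *Lhx6* controls and 27858 to 38606 in mutants, with 1 of 12 genes called higher by limma, against 1.03% of all genes, while the median log2 difference of the 12 was -0.12 and DESeq2 called 1 higher and 1 lower, against 4.53%. Summed markers of interneurons of the caudal ganglionic eminence (CGE) were 1316 to 1648 in *Lhx6* controls and 1441 to 2391 in mutants, where mutant 3 alone lay within the control range and the other 4 mutants, from 2189, above it. Of the 5 CGE genes tested, limma called 1 lower, against 0.682% of all genes, and DESeq2 called 2 higher and 1 lower, against 4.53%, while their median log2 difference was -0.59. The part of these marker lists in the *Fign* values was not tested.

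*Fign* was low in both groups of the *Mtg8* table. Controls 1, 2 and 4 had 52.5, 61.9 and 42.1 normalized counts, and the libraries labelled mutant 2, 3 and 4 had 98.6, 52.4 and 69.6. The groups overlapped, since labelled mutant 3 lay between the controls. Means were 52.2 ± 9.90 and 73.5 ± 23.3 (SD, n = 3 each). The log2 difference of *Fign* was 0.46 (SE 0.35, 95% interval -0.30 to 1.22) and did not pass the test (limma adjusted p = 0.879; exact permutation p = 0.3, where 0.1 is the smallest that 3 against 3 allows). Within name styles the difference was 0.78 among dated and 0.51 among undated libraries, the dated ones (controls 1 and 2 and labelled mutant 2) also sharing a name stem. Leaving out labelled mutant 2 gave 0.22 and leaving out labelled mutant 3 gave 0.67, the extremes over the 6 libraries. Radial glia markers summed to 6018 to 7406 in *Mtg8* controls and 7859 to 12230 in the labelled mutants, and MGE interneuron markers to 85083 to 91063 and 54133 to 70572. Cell division markers summed to 6485 to 6582 and 7157 to 8257, and CGE interneuron markers to 1596 to 1645 and 1708 to 2475. Pyramidal lineage markers summed to 12122 to 20781 in controls and to 28388, 14693 and 14535 in labelled mutants 2, 3 and 4. Labelled mutant 2 had the highest *Fign* value of the 6 libraries. It also had the highest pyramidal, CGE (2475) and cell division (8257) sums and the lowest MGE sum (54133). The highest radial glia sum (12230) was in labelled mutant 3, whose *Fign* value was the lowest of the labelled mutants. In the *Lhx6* table, mutant 1 had the highest pyramidal sum (38606) but less *Fign* (535) than mutant 3 (29830 and 700). Mutant 6 there had the lowest pyramidal sum (27858) and *Fign* value (384) of the mutants. The part of these marker lists in the *Fign* values was not tested.

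**Figure D1:**
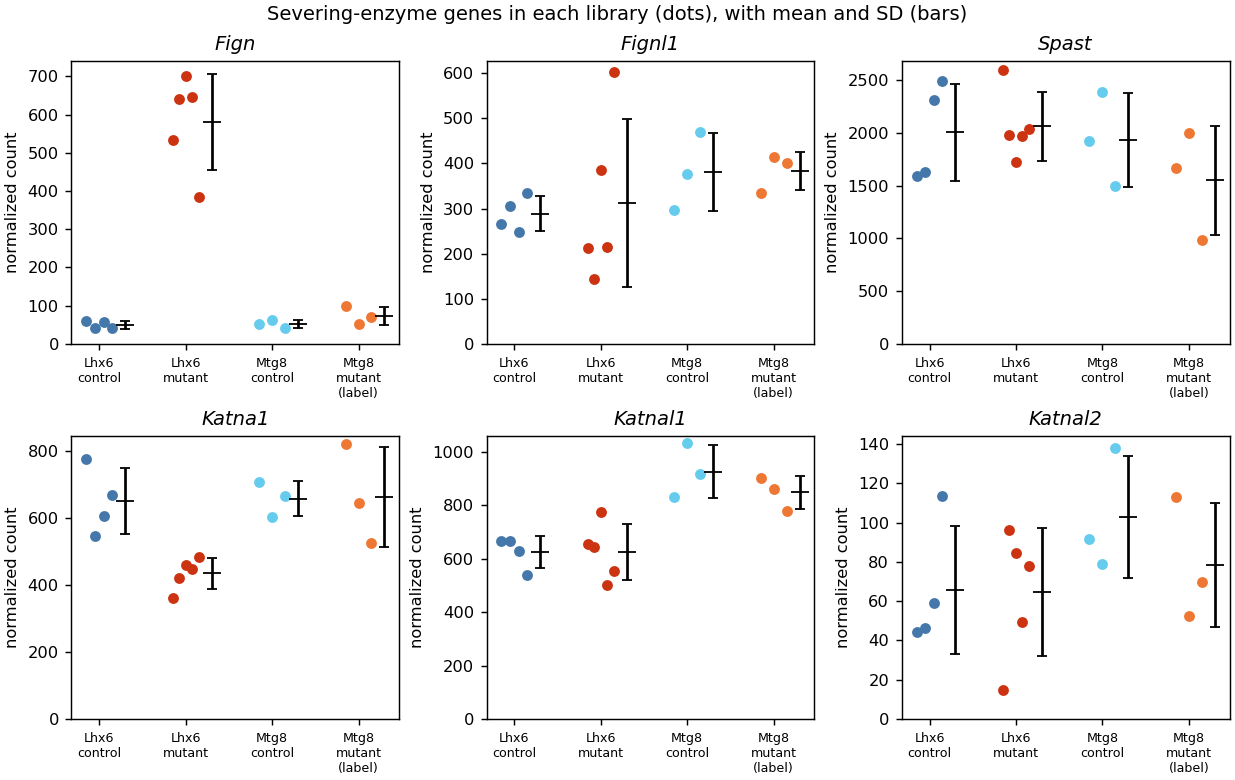
Normalized counts of the 6 severing-enzyme genes (linear axes from 0) in each library (dots), with the mean and SD (bars) for the controls (4) and mutants (5) of *Lhx6*, and the controls (3) and labelled mutants (3) of *Mtg8*. *Fign* in *Lhx6* mutants, 384 to 700, lies apart from its controls, and *Katna1* in *Lhx6* mutants, 361 to 483, lies below its controls.

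*Fignl1* encodes fidgetin-like 1, which is best known for its part in homologous recombination (ENSMUSG00000035455.12, chromosome 11, 11787431 to 11808962, minus strand). Its *Lhx6* controls had 266, 305, 247 and 334 normalized counts. The mutants had 213, 144, 386, 214 and 603, mutant 6 being the highest, and thus spread on both sides of the controls. The mean was 288 ± 38.8 in controls and 312 ± 185 in mutants, whereas the log2 difference was -0.06 (SE 0.35), so the means and the log values differ in sign. Mutant 6 alone lay 1.07 above the controls on the log2 scale. Summed cell division markers were 12900 in mutant 6 and 6369 to 7980 in controls. Those of mutants 1, 2, 3 and 5 were 5774, 8395, 5557 and 6417, so mutant 2 had a higher sum than mutant 3 but less *Fignl1*. The part of these markers in the *Fignl1* values was not tested. Of the *Mtg8* libraries, controls 1, 2 and 4 had 296, 376 and 470 normalized counts of *Fignl1* and labelled mutants 2, 3 and 4 had 335, 414 and 400. All labelled mutants lay within the range of the controls, while summed cell division markers, given above, did not overlap between these groups, and their part was not tested. The log2 difference was 0.03 (SE 0.24, 95% interval -0.49 to 0.55; limma adjusted p = 0.989; exact permutation p = 1).

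*Spast* encodes spastin, a severing enzyme whose loss causes hereditary spastic paraplegia in people (ENSMUSG00000024068.8, chromosome 17, 74338987 to 74391115, plus strand). Normalized counts of *Spast* were 1595, 1625, 2310 and 2486 in *Lhx6* controls and 2599, 1979, 1719, 1969 and 2039 in mutants. Only mutant 1 exceeded the control range. The log2 difference was 0.06 (SE 0.17). In *Mtg8* controls *Spast* was at 1919, 2382 and 1494, and in the labelled mutants at 1663, 1998 and 985, of which the last lay below the control range. The difference was -0.35 (SE 0.27, 95% interval -0.94 to 0.23; limma adjusted p = 0.879; exact permutation p = 0.5), and leaving out a library moved it from -0.57 (without labelled mutant 3) to -0.06 (without labelled mutant 4).

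*Katna1* encodes the catalytic p60 subunit of katanin, long studied as a severing enzyme in dividing cells and neurons (ENSMUSG00000019794.13, chromosome 10, 7726000 to 7763150, plus strand). The *Lhx6* controls had 776, 545, 607 and 670 normalized counts, and the mutants 361, 422, 461, 448 and 483. Every mutant was below every control, with a narrow gap between mutant 6 at 483 and control 2 at 545. Means were 649 ± 98.4 and 435 ± 46.7, so that the mutant mean was 67.0% of the control mean, a log2 difference of -0.57 (SE 0.16). Within the undated names, mutant 6 differed from the controls by -0.41. *Katna1* shares 131 of its 2195 exon bases with *Gm20470*, a long noncoding RNA gene on the opposite strand whose own mean was 4.78 in controls and 2.89 in mutants. The methods do not say whether reads were counted by strand. *Katna1* in the *Mtg8* table was at 707.5, 601 and 665 in controls and at 821, 643 and 526 in labelled mutants, which lay on both sides of the controls. The difference was -0.01 (SE 0.22, 95% interval -0.49 to 0.48; limma adjusted p = 0.996; exact permutation p = 1).

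*Katnal1* encodes a second catalytic katanin, katanin-like 1 (ENSMUSG00000041298.15, chromosome 5, 148871584 to 148929320, minus strand), and its 2 *Lhx6* groups had nearly the same mean. Controls had 667, 667, 630 and 538 normalized counts of *Katnal1*, and mutants 656, 642, 777, 500 and 555. The log2 difference was -0.01 (SE 0.16). *Mtg8* controls had 832, 1032 and 916, and labelled mutants 903, 861 and 780, overlapping ranges. That difference was -0.12 (SE 0.20, 95% interval -0.55 to 0.30; limma adjusted p = 0.943; exact permutation p = 0.4), and it ran from -0.20 without control 1 to -0.044 without control 2.

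*Katnal2* encodes the third catalytic katanin, known for its part in sperm formation (ENSMUSG00000025420.13, chromosome 18, 76977148 to 77047308, minus strand). *Lhx6* controls had 44.2, 46.1, 59.0 and 114 normalized counts of *Katnal2*, and mutants 14.8, 96.3, 84.8, 49.4 and 78.0. The lowest library was mutant 1 and the highest control 4, and the groups overlapped throughout, with a log2 difference of -0.16 (SE 0.52). For *Mtg8*, controls had 91.7, 78.9 and 138, and labelled mutants 113, 52.4 and 69.6. The difference was -0.42 (SE 0.36, 95% interval -1.20 to 0.36; limma adjusted p = 0.893; exact permutation p = 0.4). It was 0.41 among dated and -1.18 among undated libraries, so its sign differed between name styles, and it was -0.72 without labelled mutant 2 and -0.17 without labelled mutant 3.

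**Figure D2:**
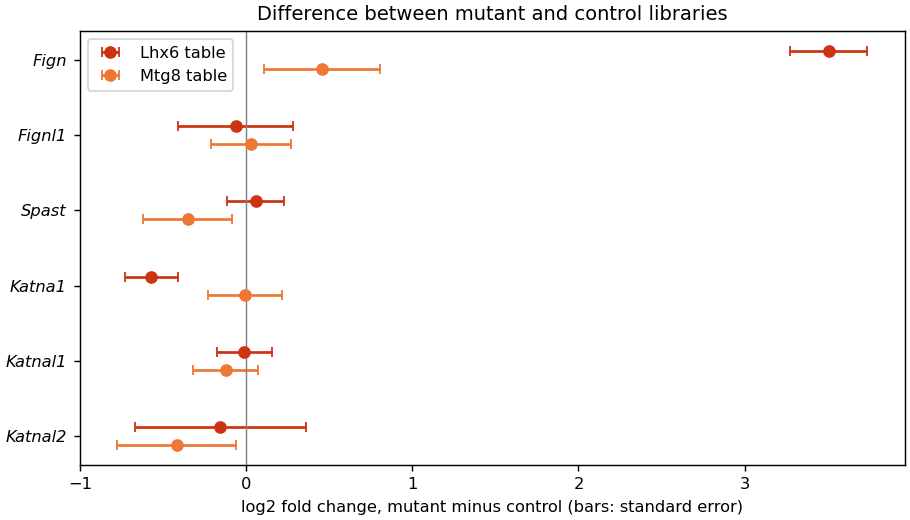
Log2 fold change, mutant minus control, of each severing-enzyme gene in the *Lhx6* table and in the libraries labelled *Mtg8* mutant (points), with standard errors (bars). *Fign* in the *Lhx6* table is at 3.51, and the other values lie between -0.57 and 0.46.

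Across the 6 genes, limma called 1, *Fign*, at an adjusted p under 0.05 in the *Lhx6* table, where 1.71% of 16727 genes were called (1.03% higher and 0.682% lower in mutants), and 2 of the 6 had an unadjusted p under 0.05, against 12.7%. Since that contrast was taken to have chosen the group, nothing is read from these counts. DESeq2 on the recovered reads called 2, *Fign* and *Katna1*, against 4.53% of all genes, and the same 2 had groups that did not overlap, against 6.22%. The median log2 difference was -0.04 over the 6 genes and -0.04 over all genes tested. In the *Mtg8* comparison, limma called 0 of the 6 genes, against 0% of 16132 genes tested, 0 had an unadjusted p under 0.05, against 5.49%, and 0 had groups that did not overlap, against 10.2%. DESeq2 called 0 of the 6, against 0.152%. The median difference was -0.07 over the 6 genes and -0.01 over all genes. The 2 tables were normalized separately and a difference between the *Lhx6* and the *Mtg8* comparison was not tested.

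Levels of different genes were compared as normalized counts per kb of exon. *Spast* and *Katna1* were the most abundant members in *Lhx6* controls, at 325 and 296 per kb with overlapping ranges. *Katnal1* at 59.6 and *Fignl1* at 59.5 formed a middle pair that also overlapped. *Katnal2* at 16.2 and *Fign* at 5.002 followed, and these ranges did not overlap. The order was the same in *Mtg8* controls, with *Spast* at 313, *Katna1* at 300, *Katnal1* at 88.3, *Fignl1* at 78.7, *Katnal2* at 25.3 and *Fign* at 5.23 per kb, and the same neighbours overlapped. *Fign* was thus the least abundant of the 6 in both control groups.

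In *Lhx6* mutants *Fign* stood at 58.3 per kb, and its range overlapped that of *Katnal1* at 59.6. *Fignl1* at 64.5 overlapped *Katnal1* as well. *Spast* at 334 and *Katna1* at 198 per kb did not overlap each other there, unlike in controls. Summed over the 6 genes, the level per kb was 761 ± 85.6 (SD, n = 4) in *Lhx6* controls and 731 ± 39.96 (n = 5) in mutants, ranges that overlap. The share of *Fign* in that sum was 0.663% ± 0.142 in controls and 8.05% ± 2.02 in mutants. Its share was 0.642% ± 0.0860 in *Mtg8* controls and 1.01% ± 0.310 in labelled *Mtg8* mutants (n = 3 each). Labelled *Mtg8* mutants had *Katna1* at 302 and *Spast* at 251 per kb, in the reverse order of their controls but with overlapping ranges, and *Fign* was the lowest at 7.37.

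**Figure D3:**
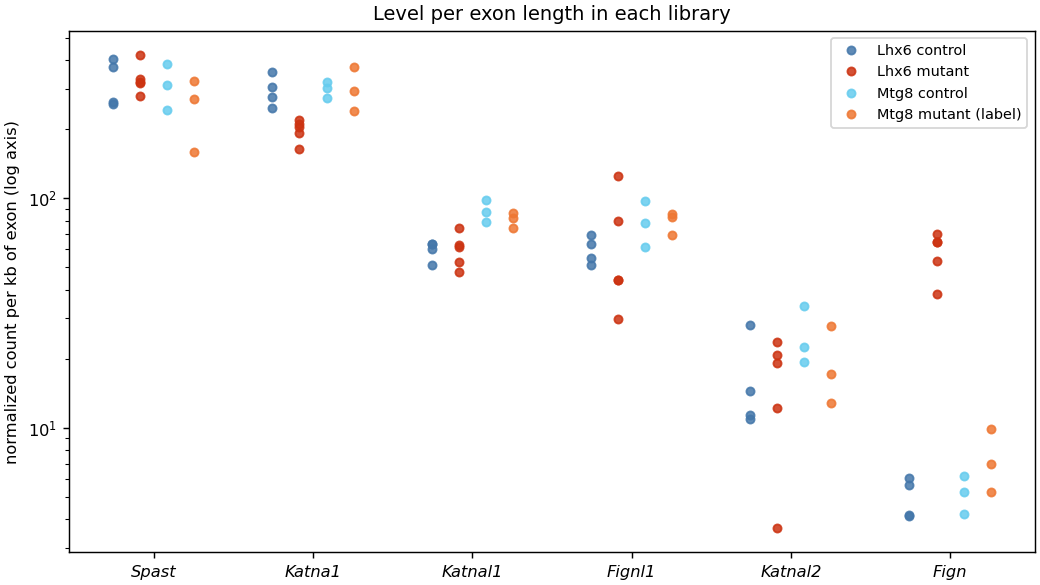
Normalized count per kb of exon (log axis) of the 6 severing-enzyme genes in each library (dots), coloured by group. *Fign* is the lowest gene in both control groups, at means of 5.002 and 5.23 per kb, and stands beside *Katnal1* and *Fignl1* in *Lhx6* mutants at 58.3.

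*Fign* and *Lhx6* lie on the same chromosome, with starts 27.99263 Mb apart. Of the genes that start within 1 Mb of the *Fign* start, 4 were tested in each table, and limma called 0 of the 4 in either, against 1.71% of all genes for *Lhx6* and 0% for *Mtg8*. *Kcnh7*, a potassium channel gene, differed by 0.45 in the *Lhx6* table (SE 0.23; adjusted p = 0.433) and by 0.01 in the *Mtg8* table. *Grb14*, which encodes an adaptor of the insulin receptor, differed by 0.24 (SE 0.71; limma adjusted p = 0.901) and by 0.55. The pseudogenes *Gm13577* and *Gm13578* differed by -0.24 and -0.25 in the *Lhx6* table and by -0.05 and 0.02 in the *Mtg8* table. Among the 4 *Lhx6* differences, 2 were above 0 and 2 below.

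**Figure D4:**
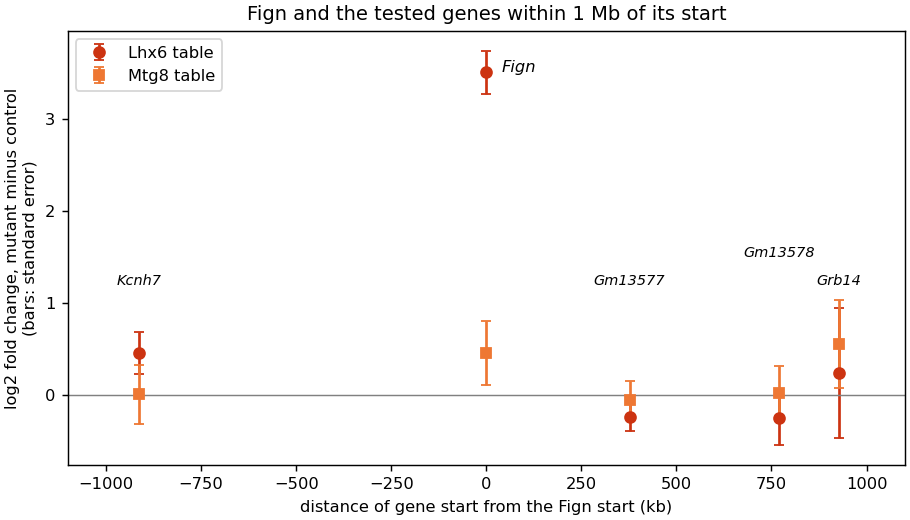
Log2 fold change, mutant minus control, with standard error (bars), against the distance in kb of each gene's start from the *Fign* start, for *Fign* and the 4 tested genes within 1 Mb. In the *Lhx6* table *Fign* is at 3.51 and its neighbours lie between -0.25 and 0.45.

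The genes whose log2 values ran most like those of *Fign* were ranked by Pearson's r over the 9 *Lhx6* libraries, among 16726 other genes. The highest were *Slc1a2* (r = 0.994), *Csmd3* (0.993), *Pnoc* (0.991), *Ppm1h* (0.990) and *Gabrg3* (0.988), and the lowest were *Sst* (-0.976), *Lhx6* (-0.973), *Akap7* (-0.971), *Gucy1a1* (-0.971) and *Thbs1* (-0.963). The 9 libraries share the division into controls and mutants, so these values are a description only. *Slc1a2*, a glutamate transporter gene, and *Pnoc*, which encodes prepronociceptin, differed by 2.46 and 3.06 between the groups, and *Sst*, the somatostatin gene, by -3.06. Over the 6 libraries of the *Mtg8* table the highest were *Rab3d*, *D030068K23Rik*, *E330009J07Rik*, *Kif23* and *Mcm8* (r = 0.976 to 0.995) and the lowest *Htr3a*, *Ubash3b*, *Pcdhb12*, *Dtwd1* and *Stk24* (r = -0.978 to -0.965). These too are a description.

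Partners and relatives of the severing enzymes were followed as lists of genes. *Vps4a* and *Vps4b*, close AAA relatives that disassemble ESCRT-III filaments, differed by -0.05 and -0.22 in the *Lhx6* table, and limma called 0 of the 2. Of 18 genes for spastin partners that shape the endoplasmic reticulum or work at endosomes, limma called 0, against 1.71% of all genes, and DESeq2 called 1, against 4.53%, *Ist1*, which encodes an ESCRT-III protein. *Ist1* was at 2874 ± 342 in controls and at 1985 ± 280 in mutants, a difference of -0.54 (SE 0.14; limma adjusted p = 0.0829, DESeq2 adjusted p = 0.00988), and was singled out after its value was seen.

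The substrate itself was also followed in the *Lhx6* table. Against 1.71% of all genes, limma called 0 of 15 tubulin genes (median log2 difference -0.21), 0 of 11 genes for glutamylases and deglutamylases (median -0.44), which set the glutamate chains on tubulin that spastin and katanin read, and 0 of 8 genes for other tubulin modifications (median 0.04). Among lattice-binding proteins and doublecortins, several of which shield microtubules from severing, 0 of 14 were called (median 0.06), and DESeq2 called 1, against 4.53% of all genes, *Dclk2*, a doublecortin-like kinase gene, at -0.59 (SE 0.17; limma adjusted p = 0.138, DESeq2 adjusted p = 0.0325), likewise singled out afterwards. Among stathmins and depolymerising kinesins 0 of 9 were called (median -0.25).

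Proteins of microtubule ends were the list with calls by limma. Of 23 genes tested, limma called 2, both higher in *Lhx6* mutants, against 1.03% of all genes called higher, with a list median of 0.04 beside -0.04 over all genes. *Slain1*, whose product promotes growth of plus ends, had 890, 837, 1269 and 1042 normalized counts in controls and 3508, 1955, 2076, 1893 and 1316 in mutants. Mutant 6 lay just above the highest control and mutant 1 far above the rest. The difference was 1.03 (SE 0.24; limma adjusted p = 0.0473). *Nav3*, a neuron navigator that tracks plus ends, had 875, 829, 1020 and 792 in controls and 2418, 1575, 1654, 1884 and 1113 in mutants. It differed by 0.94 (SE 0.20; limma adjusted p = 0.0286), again with mutant 6 lowest among the mutants. Within the undated names mutant 6 differed from controls by 0.40 for *Slain1* and 0.35 for *Nav3*, and neither was called with name style as a covariate. Summed pyramidal lineage markers, at 22318 to 28063 in controls, were likewise highest in mutant 1 (38606) and lowest among the mutants in mutant 6 (27858). Other libraries ran the other way. Control 2 had the highest sum of the controls (28063) but the lowest *Slain1* (837). Mutant 3 had a lower sum (29830) than mutant 2 (33269) but more *Slain1* and *Nav3*. The part of these markers in the 2 calls was not tested. The *Slain1* call was lost on leaving out any control or mutant 2, 3 or 5 (adjusted p = 0.0591 to 0.180, difference 0.95 to 1.15), and the *Nav3* call on leaving out any control or mutant 2 or 5 (adjusted p = 0.0513 to 0.125, difference 0.89 to 1.01). DESeq2 called 3 genes of this list, against 4.53% of all genes, adding *Clasp1*, which encodes another plus-end protein, at 0.56 (SE 0.14; limma adjusted p = 0.0758, DESeq2 adjusted p = 0.00831), singled out after its value was seen.

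In the *Mtg8* table limma and DESeq2 called 0 genes in each of these lists, against 0% and 0.152% of all genes. *Slain1* was at 915 ± 138 normalized counts in *Mtg8* controls and 765 ± 329 in labelled mutants, a difference of -0.34 (SE 0.29; limma adjusted p = 0.893), and *Nav3* at 1107 ± 321 and 753 ± 239, a difference of -0.56 (SE 0.27; limma adjusted p = 0.859). Leaving out 1 library at a time moved the *Slain1* difference from -0.65 without mutant 3 to -0.0096 without mutant 4, and the *Nav3* difference from -0.81 without mutant 2 to -0.35 without control 2. List medians ranged from -0.22 for the end-binding proteins to 0.10 for the stathmins and depolymerising kinesins and for the *Vps4* pair.

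**Figure D5:**
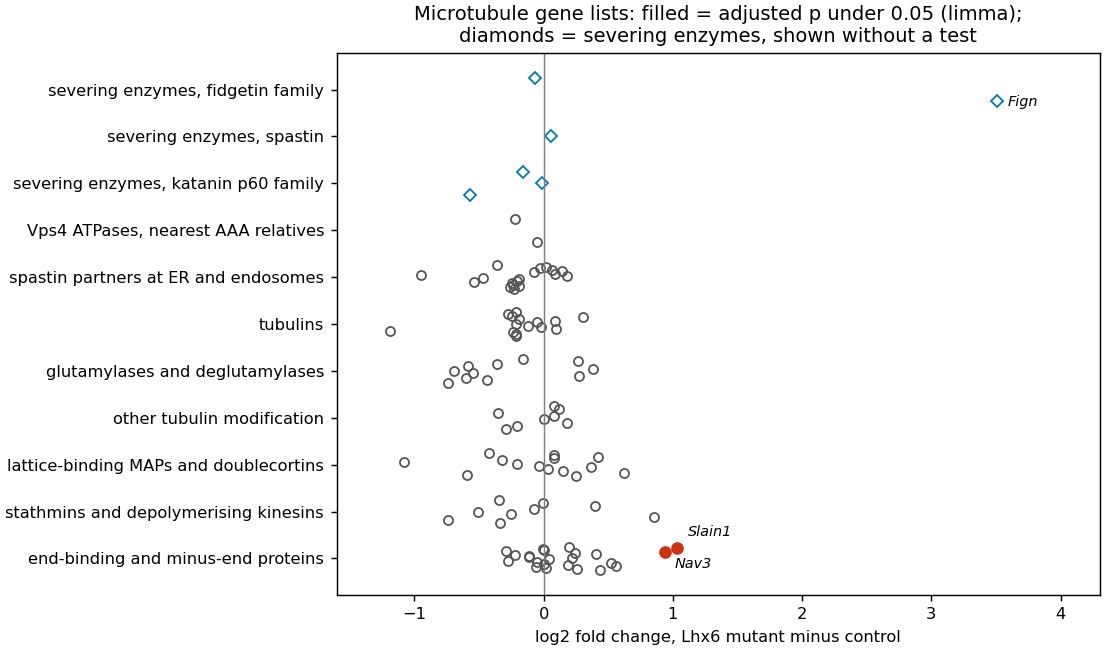
Log2 fold change, *Lhx6* mutant minus control, of each tested gene (circles) in the lists of severing enzymes and other microtubule genes, with filled circles for a limma adjusted p under 0.05 and open diamonds for the severing enzymes, which are shown without a test. The filled circles are *Slain1* at 1.03 and *Nav3* at 0.94, *Fign* is the diamond at 3.51, and all other genes lie between -1.19 and 0.85.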

How the data were processed

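RNA from sorted cells was made into low-input cDNA libraries. Per the labels, reads were trimmed (fastp 0.20.1), aligned to GRCm38.p6 (STAR 2.7b) and counted per gene (featureCounts 1.6.4); sex-linked genes were removed by the authors. The deposited values are a signal, counts divided by DESeq2 size factors, in 1 table per gene studied. They were whole multiples of 1 read for 100% of values (tolerance 0.01), so reads were recovered. Columns with the authors' own fold changes and p-values were not used.

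limma 3.58.1 (R 4.3.3) was fitted to log2(normalized count + 1) in each table alone, with a mean-variance trend, over genes with a mean of at least 10. Tests were two-sided, with Benjamini-Hochberg adjustment over all genes tested and a threshold of 0.05. edgeR 4.0.16 and DESeq2 1.42.0 ran on recovered reads, and all were tested on simulated data. Exact permutation tests compared mean log2 values. Embryos were separate animals; the methods call mutants littermates of controls, and neither replicate numbers nor name stems were used as pairs. Named genes were the members, the targeted genes, list genes called by limma, all genes of lists of 2 or fewer, the 5 genes most and least like *Fign*, its neighbours within 1 Mb, and genes sharing exons with members. *Ist1*, *Dclk2* and *Clasp1*, called by DESeq2 and not by limma, and *Sst* were named after their values were seen. Results of 2 lists are not reported here. The members and lists were chosen with earlier results of these data known. Depth was 12218422 to 22053032 reads per library; every member analysed had more than 3 reads in every library.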

Additional observations from a re-analysis of the deposited data

How the results depend on the processing

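For *Lhx6*, 1 member, *Fign*, was called under every alternative and on leaving out each library in turn (1 to 1), where 0.341% to 2.94% of all genes were called at an adjusted p under 0.05, except with DESeq2, which called 2, *Fign* and *Katna1* (-0.58), against 4.53% of all genes. *Fign* was taken as selected on this comparison, so these counts are no sign of stability. For *Mtg8*, 0 members were called throughout (0 to 0 on leaving out libraries), against 0% to 0.62% of all genes. *Fign* in the *Lhx6* table ranged from 2.94, with library name style as a covariate, to 3.55, and from 3.42 to 3.65 on leaving out a library. *Katna1* there kept its sign, from -0.65 to -0.41. DESeq2 also called 1 gene each of the katanin p60 family, the spastin partners and the lattice-binding proteins, and 3 end-binding genes against 2 by limma, beside the same 4.53% of all genes. The *Slain1* and *Nav3* alternatives and the name stems were chosen after seeing the data: the *Slain1* call was also lost with a pseudocount of 0.5, no filter, TMM factors, no trend and the block (adjusted p = 0.0503 to 0.151, difference 0.998 to 1.30), and the *Nav3* call with no trend and the block (0.106 and 0.206, difference 0.94 and 1.03).

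Small differences changed sign, and the cause was not tested. *Fignl1* in the *Lhx6* table was 0.10 with edgeR, 0.11 with DESeq2, 1.07 with name style as a covariate, and -0.35 to 0.17 on leaving out a library. *Spast* was -8.5e-05 with equal totals and -0.044 to 0.17 on leaving out a library. *Katnal1* was -0.092 to 0.067 and *Katnal2* -0.36 to 0.30 on leaving out a library, and *Katnal2* was 0.35 with name style. In the *Mtg8* table *Fignl1* was -0.10 with name style and -0.14 to 0.19 on leaving out a library. *Katna1* there was 0.022 with TMM factors, 0.063 with equal totals, 0.025 with edgeR, 0.0095 with DESeq2, 0.069 with name style and -0.17 to 0.15 on leaving out a library.

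Samples with the same replicate number did not deviate together in the *Lhx6* table (r = -0.15 to 0.07 over 3 pairs), and the *Mtg8* table had only 2 such pairs (r = 0.14 and 0.16). Those 2 values were above those of the 7 other *Mtg8* pairs (r = -0.18 to 0.078). Control 2 and labelled mutant 2 also shared a name stem. With a replicate block, 1 *Lhx6* member was called, against 0.514% of all genes, and 0 *Mtg8* members, against 0.62%, *Fign* was 3.55 and 0.69, *Katnal1* 0.074 and *Katnal2* 0.017 in the *Lhx6* table, and *Fignl1* -0.20 and *Katna1* 0.055 in the *Mtg8* table.

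Over all genes, 286 were called in the *Lhx6* table, 811 with DESeq2, 86 with the replicate block, 57 with name style, and 159 to 491 on leaving out a library, the last without mutant 6. For *Mtg8*, 0 were called, 30 with DESeq2, 100 with the replicate block, 2 at a minimum mean of 50, 1 without a filter or with edgeR, and 0 to 86 on leaving out a library, the last without labelled mutant 2. Without division by exon length, the order of levels in controls differed: *Katnal1* stood above *Katna1* in *Mtg8* controls, and *Katnal2* overlapped *Fign* in *Lhx6* controls. Depth limits *Fign* and *Katnal2* most, with as few as 12 reads for *Katnal2*, in *Lhx6* mutant 1, and 43 for *Fign*, in a *Mtg8* control.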
